A study of Mus musculus with 8 samples.

Results

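The epithelium of the proximal small intestine was compared with the epithelium of the forestomach of E16.5 mouse embryos, a few days before birth. The comparison rests on 4 of the 8 RNA-seq libraries of the series, 2 of each tissue, and the other 4 come from the hindstomach and the colon. Of the 23393 gene symbols in the deposited table, 11684 were tested, those with at least 1 FPKM in at least 2 of the 4 libraries. FPKM is a fragment number scaled to the transcript's length and to the library's total. Per the protocol, epithelium came from ShhCre;R26YFP/+ embryos, in which Shh-driven Cre switches on a YFP reporter, with no further treatment. Shh is active in gut epithelium, and the isolated epithelium was frozen for RNA, not sorted for YFP. The forestomach was cut from the glandular stomach at the border of the squamous lining, held in Dispase for 15 minutes at 37 °C, and its epithelium was peeled off by hand. Small intestine epithelium was released with 5 mM EDTA over 30 to 40 minutes at 4 °C and by shaking. Tissue and isolation method therefore coincide and cannot be told apart. The labels call the 2 libraries of each tissue replicates but give no embryo or litter for them, so the p-values reflect the spread between libraries only, and that spread may be technical.

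The forestomach of rodents is lined by a stratified squamous epithelium, in which basal cells attached by hemidesmosomes give rise to flattening cells that build a cornified envelope of cross-linked proteins. The small intestine is lined by a single layer of columnar cells that form villi before birth, most of them enterocytes with a brush border of microvilli that digest and take up nutrients. Both linings arise from the endoderm, where Sox2 marks the future stomach and oesophagus and Cdx2 the future intestine.

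The promoters of the most different genes on each side are shown because these genes lead the contrast. They are the leading 3 genes of each side, by the fitted difference described below, that have an entry in the RefSeq promoter table of GRCm38.p6. Psca and Krt4 also ranked there and have no entry. Each window holds 200 bases on the coding strand, 180 before and 20 from the start of transcription, written 5′ to 3′. The windows lie at chr6:71199699-71199898 on the plus strand for Fabp1, at chr3:122894892-122895091 plus for Fabp2 and at chr9:46240664-46240863 plus for Apoa4. Those of the forestomach genes lie at chr7:30787725-30787924 plus for Krtdap, at chr11:100121547-100121746 minus for Krt13 and at chr7:25369705-25369904 minus for Cnfn. Capitals mark matches on either strand to the 6 motifs searched.
Fabp1: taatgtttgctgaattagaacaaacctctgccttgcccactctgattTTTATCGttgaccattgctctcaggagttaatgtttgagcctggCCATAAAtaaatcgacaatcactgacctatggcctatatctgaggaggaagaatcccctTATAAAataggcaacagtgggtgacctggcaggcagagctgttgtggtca
Fabp2: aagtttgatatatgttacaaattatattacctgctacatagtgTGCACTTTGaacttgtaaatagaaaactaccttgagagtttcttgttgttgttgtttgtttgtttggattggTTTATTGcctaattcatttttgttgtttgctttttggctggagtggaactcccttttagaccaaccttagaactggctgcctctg
Apoa4: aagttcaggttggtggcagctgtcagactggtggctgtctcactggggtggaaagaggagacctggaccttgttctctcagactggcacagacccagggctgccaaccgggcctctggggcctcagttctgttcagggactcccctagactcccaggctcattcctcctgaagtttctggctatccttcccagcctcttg
Krtdap: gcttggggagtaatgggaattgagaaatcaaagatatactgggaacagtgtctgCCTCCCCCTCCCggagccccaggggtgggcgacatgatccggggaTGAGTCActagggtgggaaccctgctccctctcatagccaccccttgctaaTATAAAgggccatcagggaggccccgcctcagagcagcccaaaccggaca
Krt13: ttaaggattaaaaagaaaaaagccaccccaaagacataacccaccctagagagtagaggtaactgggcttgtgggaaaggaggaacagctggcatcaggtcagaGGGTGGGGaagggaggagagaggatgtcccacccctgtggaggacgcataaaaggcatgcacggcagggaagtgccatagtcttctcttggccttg
Cnfn: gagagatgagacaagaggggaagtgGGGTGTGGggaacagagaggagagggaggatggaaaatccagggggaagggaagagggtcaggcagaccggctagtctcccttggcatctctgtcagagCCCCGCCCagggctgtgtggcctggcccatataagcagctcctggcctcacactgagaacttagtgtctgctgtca

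The motifs were TATAAA of the TATA box, TTTATNG for CDX factors, CAAAGNNCA for HNF4, AGATAA for GATA factors, TGANTCA for AP-1 and CCNCNCCC for KLF factors. The Fabp1 window held TATAAA with its first base at position -30 and CDX matches at -133 and -89. The Fabp2 window held a CDX match at -65 and an HNF4 match at -137, and the Apoa4 window held none of the 6. The Krtdap window held TATAAA at -30, an AP-1 match at -81 and 2 KLF matches that overlap at -126 and -122. KLF matches were found at -76 in Krt13 and at -155 and -56 in Cnfn. The HNF4 letters were present in 7.2% of 1181 windows of genes called higher in the small intestine, in 1.68% of 596 windows of genes called higher in the forestomach and in 3.27% of 9101 windows of all genes tested. The GATA letters were present in 7.28%, 3.02% and 4.09%, and the CDX letters in 6.52%, 6.88% and 4.66%. The AP-1 letters were present in 5.0%, 7.38% and 3.63%, the KLF letters in 61.0%, 67.3% and 62.1%, and TATAAA in 7.2%, 8.56% and 4.78%. Over all 27025 promoters of the table, the shares were 4.25% for HNF4, 7.62% for GATA, 7.7% for CDX, 5.51% for AP-1, 42.5% for KLF and 9.97% for TATAAA. These shares are descriptions of letters and were not tested.

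The pairs of libraries were not equally alike. The small intestine pair correlated at r = 0.983 across the 11684 genes on log2(FPKM + 1) and the forestomach pair at r = 0.702, where genes are not independent replicates. The forestomach libraries were at least 2-fold apart at 3761 genes (32.2% of those tested), against 352 genes (3.01%) for the small intestine pair. Summed FPKM was 349700 and 352550 in the small intestine, 545227 in forestomach replicate 1 and 378497 in forestomach replicate 2, and the 10 most abundant genes held 52.5% of the sum in forestomach replicate 1 and 17.4% in replicate 2. The most abundant gene of forestomach replicate 1 was Pgc, which encodes a gastric zymogen, and that of replicate 2 was Krt13, a keratin of squamous epithelium. Read numbers are unknown. Low values gave depths relative to small intestine replicate 1 of 0.495 for its partner, 0.937 for forestomach replicate 1 and 0.461 for replicate 2, uncertain because 11.7% to 14.0% of low genes shared the ratio. The library labelled forestomach replicate 1 went against its label in part. It held squamous genes, but also gastric glandular genes and the pancreatic colipase gene Clps at high levels. Of the 16 pancreatic and hepatic genes listed, 10 were under 1 FPKM there. H19, an imprinted RNA of fetal tissues, stood at 10.1 FPKM in it against 4137 in replicate 2. Which tissues it holds could not be settled from these files. Values are therefore printed for each forestomach library, and counts that moved without one of them are given.

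With a linear model on log2(FPKM + 1) over the 8 libraries (limma, 2-fold or more and p under 0.05 after Benjamini-Hochberg adjustment), 1486 genes were called higher in the small intestine (12.7% of those tested) and 794 higher in the forestomach (6.8%), in all 19.5%. Without forestomach replicate 1 the counts were 2067 (17.7%) and 1497 (12.8%), in all 30.5% of genes. Without replicate 2 they were 2366 (20.2%) and 1447 (12.4%), in all 32.6%. In those 2 fits the lone forestomach library was assumed to vary like the other tissues. The fit of all 8 libraries also used 1 spread per gene for all tissues. It pooled the forestomach pair (r = 0.702) with the closer pairs of small intestine (0.983), hindstomach (0.979) and colon (0.957). Standard errors and adjusted p can therefore be too small where the forestomach libraries were far apart. Called in all 3 fits were 1212 genes higher in the small intestine (10.4%) and 666 higher in the forestomach (5.7%). Without small intestine replicate 1 the counts fell to 588 and 240, and without replicate 2 to 463 and 153. The median difference over all genes was 0.17 on the log2 scale, 0.02 after median-of-ratios scaling and 0.47 after rescaling libraries to the same sum. The share of calls that were higher in the small intestine was 65.2%, against 54.4% and 80.1% under those scalings, and 54.7% after quantile normalization. Differences below are small intestine minus forestomach on the log2(FPKM + 1) scale with their standard error, which understates the change of low genes. A gene under 1 FPKM in both libraries of a tissue passed the filter only through the other tissue. The direction of such a gene was therefore fixed in advance, which bears on the list counts below.

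**Figure D1:**
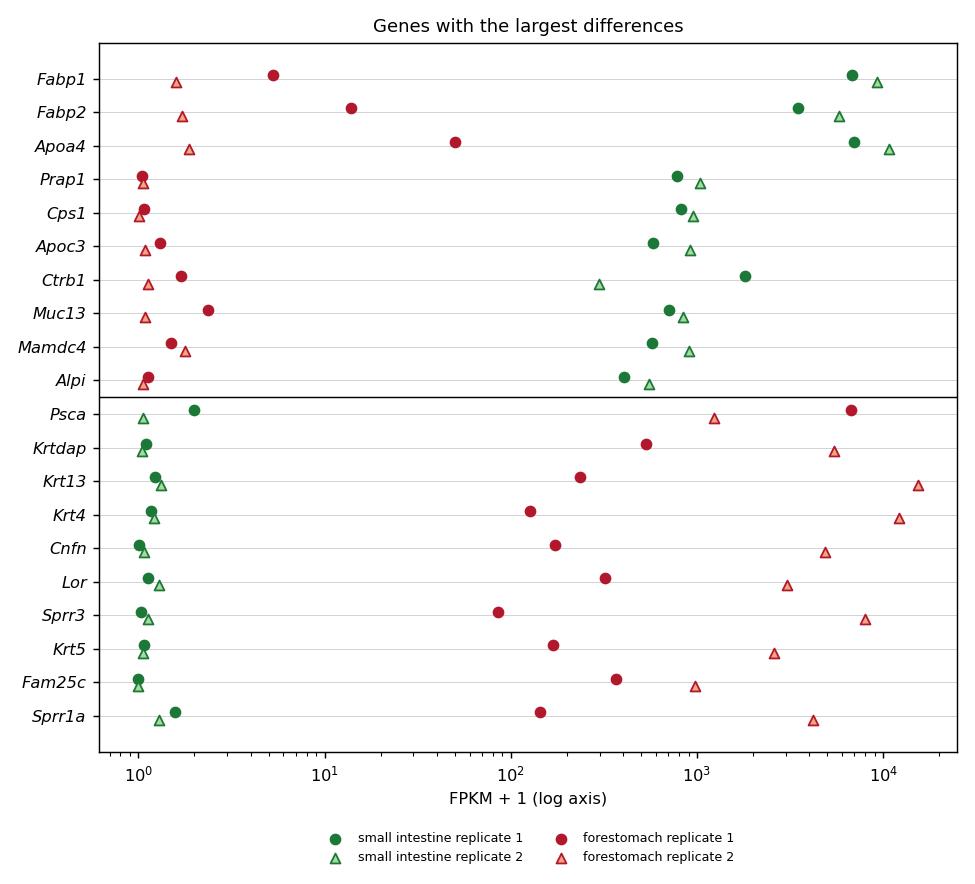
FPKM + 1 on a log axis in each of the 4 libraries for the 10 genes with the largest differences on each side, small intestine in green and forestomach in red, circles for replicate 1 and triangles for replicate 2. The 20 genes were ranked only among called genes at which the tissues do not overlap. The forestomach genes lie higher in replicate 2 than in replicate 1 except Psca (1232 against 6704 FPKM).

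Genes were ranked only among those called, with a mean of at least 10 FPKM in the higher tissue and no overlap between the tissues. The 10 ranked genes with the largest differences toward the small intestine were, in order, Fabp1, Fabp2, Apoa4, Prap1, Cps1, Apoc3, Ctrb1, Muc13, Mamdc4 and Alpi. Fabp1, a fatty acid binding protein of enterocytes and liver cells, stood at 6782 and 9222 FPKM in small intestine replicates 1 and 2 and at 4.26 and 0.584 FPKM in forestomach replicates 1 and 2. Both small intestine libraries were far above both forestomach libraries, a difference of 11.42 ± 0.73 (adjusted p = 4.83e-04). Fabp2, the intestinal fatty acid binding protein, stood at 3502 and 5809 FPKM against 12.8 and 0.706 FPKM, a difference of 9.86 ± 1.05 (adjusted p = 0.00253). Apoa4, an apolipoprotein of chylomicrons, the particles in which the gut exports fat, stood at 6997 and 10754 FPKM against 48.9 and 0.860 FPKM, a difference of 9.81 ± 1.49 (adjusted p = 0.00753). Its groups did not overlap either, but the call was lost without small intestine replicate 2 (adjusted p = 0.0608). All 3 genes were lowest in forestomach replicate 2. Cps1, the first enzyme of the urea cycle, which enterocytes share with liver cells, stood at 819.5 and 954 FPKM against 0.0651 and 0.00968 FPKM (difference 9.74 ± 0.64, adjusted p = 5.19e-04).

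Lipid absorption genes were higher in the small intestine at 18 of 22 tested members, with a median difference of 4.54 against 0.17 over all genes, and all 22 had both small intestine libraries above both forestomach libraries (36.8% of all genes did). With 1 forestomach library left out, 20 members were called in either case, and 14 and 10 without small intestine replicates 1 and 2 in turn. In forestomach replicates 1 and 2, 6 and 14 of the 22 members were under 1 FPKM. Members under 1 FPKM in both passed the filter only through the small intestine, which fixed their lack of overlap in advance. Mttp, which loads lipid onto apolipoprotein B, stood at 593 and 657 FPKM against 0.433 and 0.890 FPKM (8.57 ± 0.44, adjusted p = 2.53e-04). Apoa1, an apolipoprotein of high-density lipoprotein, was not called: it stood at 3339 and 4565 FPKM in the small intestine, at 1168 in forestomach replicate 1 and at 8.05 in replicate 2 (5.25 ± 2.07, adjusted p = 0.124). Cd36, a fatty acid receptor, also sat near the small intestine level in forestomach replicate 1, at 34.2 FPKM against 50.2 and 54.9 FPKM, and at 0.255 FPKM in replicate 2 (3.01 ± 1.42, adjusted p = 0.183). Dgat2, an enzyme of triglyceride synthesis, showed the other order, with 34.6 and 212 FPKM in forestomach replicates 1 and 2 against 357 and 476 FPKM in the small intestine (2.25 ± 0.93, adjusted p = 0.138). These 3 genes and Slc27a4 were the members that missed the threshold.

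The brush border hydrolases, enzymes that finish the digestion of sugars, peptides and phosphates at the cell surface, were higher in the small intestine at all 15 tested members with all libraries and without either forestomach library (median difference 5.71). The count was 12 without either small intestine library and 14 after median-of-ratios scaling. The list had 20 members, and Akp3, Sis, Treh, Tmprss15 and Folh1 did not pass the filter. Of the 20, 15 and 17 were under 1 FPKM in forestomach replicates 1 and 2. Tested members under 1 FPKM in both passed only through the small intestine, which fixed their direction in advance. Alpi, an intestinal alkaline phosphatase, stood at 406 and 552 FPKM against 0.121 and 0.0614 FPKM (8.76 ± 0.54, adjusted p = 4.43e-04). Lct, the lactase of suckling animals, stood at 389.5 and 515 FPKM against 0.142 and 0.0644 FPKM (8.67 ± 0.57, adjusted p = 5.19e-04). Mep1a, a subunit of the metalloprotease meprin, stood at 99.9 and 117 FPKM and was listed at 0 in both forestomach libraries. These 3 enzymes were under 1 FPKM in both forestomach libraries.

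Microvillus structure genes were higher at 12 of 15 tested members, 14 without forestomach replicate 1 and 13 without replicate 2, with 9 and 8 without small intestine replicates 1 and 2 in turn. The intermicrovillar cadherins Cdhr5 and Cdhr2 stood at 286 and 424 FPKM and at 169.6 and 220.1 FPKM in the small intestine. In forestomach replicates 1 and 2 Cdhr5 stood at 2.70 and 0.0136 FPKM (7.49 ± 0.70, adjusted p = 0.00160), and Cdhr2 at 1.98 and 0.0261 FPKM (6.80 ± 0.59, adjusted p = 0.00135). Both cadherins were thus higher in forestomach replicate 1 than in replicate 2. Ezr, the membrane linker ezrin, which squamous cells also express, stood at 216 and 231 FPKM against 331 and 203 FPKM and was not called (-0.21 ± 0.27, adjusted p = 0.616). Myo1a, the brush border myosin, missed the threshold, with 80.5 and 99.0 FPKM against 37.4 and 4.69 FPKM (2.61 ± 0.83, adjusted p = 0.0710).

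Nutrient transporters were higher in the small intestine at 12 of 16 tested members, 13 without forestomach replicate 1 and 15 without replicate 2, and 10 after median-of-ratios scaling. The count was 7 and 5 without small intestine replicates 1 and 2 in turn, and 8 without either hindstomach library. Of the 17 members, 10 and 11 were under 1 FPKM in forestomach replicates 1 and 2. Tested members under 1 FPKM in both passed the filter only through the small intestine, which fixed their direction in advance. Slc3a1 and Slc7a9 form the transporter of cystine and basic amino acids. Slc3a1 stood at 168 and 209 FPKM against 0.416 and 0.210 FPKM (7.17 ± 0.39, adjusted p = 2.87e-04), and Slc7a9 at 94.7 and 108 FPKM against 0.0132 FPKM and a listed 0 (6.66 ± 0.43, adjusted p = 5.15e-04). Slc15a1, the peptide transporter, and Slc6a19, the carrier of neutral amino acids, were not called and had higher values in forestomach replicate 2 than in replicate 1. Slc15a1 stood at 26.8 and 34.0 FPKM against 0.912 and 20.9 FPKM (2.27 ± 1.07, adjusted p = 0.183), and Slc6a19 at 50.5 and 61.2 FPKM against 0.747 and 17.1 FPKM (3.33 ± 1.05, adjusted p = 0.0697). The other 2 members that were not called overlapped between the tissues. Slc2a5, a fructose transporter, stood at 1.93 and 3.01 FPKM against 2.30 and 0.0105 FPKM (0.91 ± 0.57, adjusted p = 0.301), and Slc46a1, a folate transporter, at 3.93 and 6.39 FPKM against 1.47 and 7.49 FPKM (0.40 ± 0.57, adjusted p = 0.659).

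Genes of the endocytic apparatus of fetal enterocytes, which take up whole proteins and antibodies before weaning, were higher at 6 of 7 members and lower at 1, and at 3 and none without either small intestine library. Folr1, a folate receptor, stood at 179 and 195 FPKM against 0.825 and 0.00781 FPKM (7.11 ± 0.32, adjusted p = 1.54e-04). Of the 7 members, 4 and 6 were under 1 FPKM in forestomach replicates 1 and 2, with Folr1, Amn and Cubn under it in both. Such genes passed the filter only through the small intestine, which fixed their direction in advance. With all libraries 12.7% of all genes tested were called higher in the small intestine. Amn and Cubn encode the subunits of the cubam receptor. Amn stood at 148 and 163 FPKM against 0.120 and 0.160 FPKM (7.10 ± 0.26, adjusted p = 8.75e-05), and Cubn at 22.6 and 25.6 FPKM against 0.0212 and 0.00120 FPKM (4.63 ± 0.35, adjusted p = 8.81e-04). Fcgrt, the neonatal Fc receptor that carries maternal antibody, stood at 889.7 and 1322 FPKM against 16.1 and 0.371 FPKM (7.81 ± 1.26, adjusted p = 0.00887). Its call was lost without either small intestine library (adjusted p = 0.0511 and 0.0694). Pllp, a membrane protein of the endosomal route, went the other way, with 17.7 and 13.6 FPKM against 86.4 and 40.5 FPKM (-1.87 ± 0.36, adjusted p = 0.0153), and its call too was lost without either small intestine library (adjusted p 0.0698 to 0.114).

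**Figure D2:**
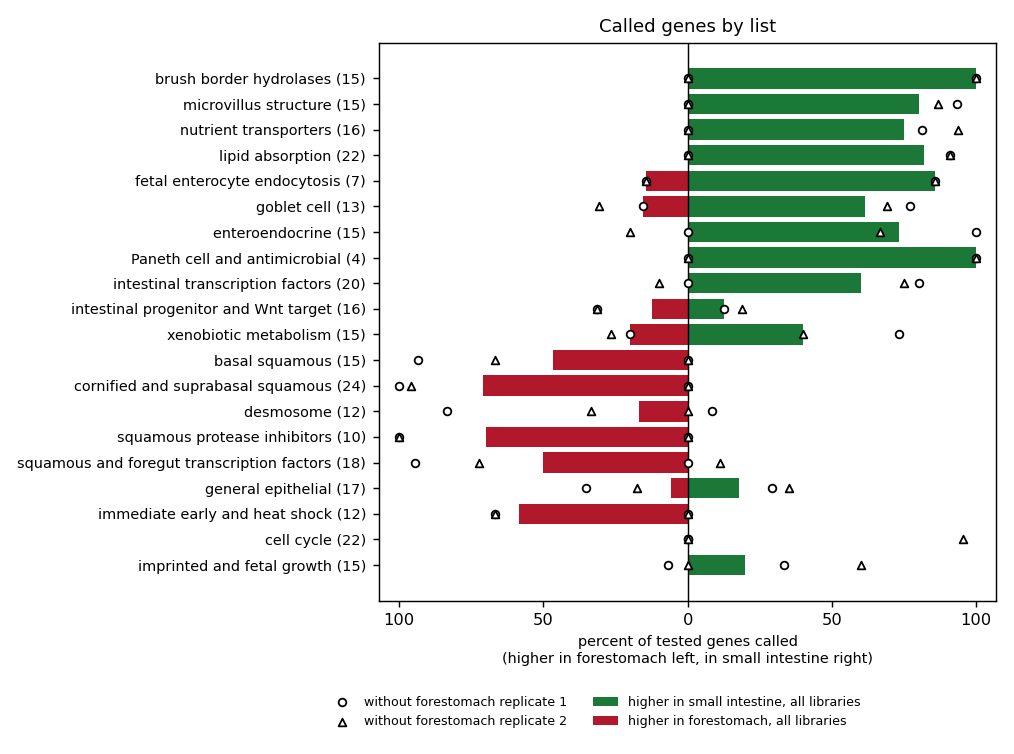
Percent of the tested members of each gene list (number in brackets) called higher in the forestomach, to the left, and in the small intestine, to the right. Bars use all libraries, circles leave out forestomach replicate 1 and triangles replicate 2. Members under 1 FPKM in both libraries of a tissue passed the filter only through the other tissue, which fixed their direction in advance. Brush border hydrolases reached 15 of 15 in all 3 fits, and cell cycle genes moved from 0 to 21 of 22 when replicate 2 was left out.

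Secretory genes split between the lineages. Of all genes tested, 12.7% were called higher in the small intestine and 6.8% in the forestomach with all libraries. Of 13 tested goblet cell genes, 8 were higher in the small intestine and 2 were lower, 10 and 2 without forestomach replicate 1, and 9 and 4 without replicate 2. Without small intestine replicates 1 and 2 in turn, 6 and 6 were higher and 1 and none lower. Tff3, a trefoil peptide of goblet cells, stood at 573 and 546 FPKM against 1.36 and 0.764 FPKM (8.10 ± 0.30, adjusted p = 8.75e-05). Muc13, a membrane mucin of enterocytes and goblet cells, stood at 709 and 839 FPKM against 1.37 and 0.0826 FPKM (8.91 ± 0.43, adjusted p = 1.86e-04). Spdef, a transcription factor of mucous cells, was lower in the small intestine, with 7.33 and 5.11 FPKM against 19.8 and 18.4 FPKM (-1.49 ± 0.31, adjusted p = 0.0188). That call was lost when any small intestine or hindstomach library was left out (adjusted p 0.0503 to 0.140). Agr2, a chaperone of mucin folding, depended on the forestomach library: 118 and 96.0 FPKM in the small intestine lay between 272 in forestomach replicate 1 and 9.82 in replicate 2 (0.98 ± 1.35, adjusted p = 0.645).

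Enteroendocrine genes were higher in the small intestine at 11 of 15 tested members, at 15 without forestomach replicate 1, at 10 with 3 lower without replicate 2, and at 6 without either small intestine library. Sct, which encodes secretin, stood at 104 and 101 FPKM against 0.330 and 0.0336 FPKM (6.46 ± 0.21, adjusted p = 8.48e-05). Cck, the hormone cholecystokinin, stood at 51.0 and 54.6 FPKM against 0.232 FPKM and a listed 0 (5.60 ± 0.52, adjusted p = 0.00162). Gip, an incretin of the upper intestine, stood at 45.4 and 63.0 FPKM and was listed at 0 in both forestomach libraries. Sct, Cck and Gip were under 1 FPKM in both forestomach libraries. They passed the filter only through the small intestine, which fixed their direction in advance. Over all genes tested 12.7% were called higher in the small intestine with all libraries. Hormones that the glandular stomach also makes did not follow these 3 genes. Ghrl, the precursor of ghrelin, stood at 27.9 and 22.1 FPKM in the small intestine, at 547 in forestomach replicate 1 and at 3.07 in replicate 2. Sst, somatostatin, stood at 15.6 and 14.4 FPKM against 247 and 0.569 FPKM in the same order. The small intestine lay below forestomach replicate 1 and above replicate 2 for both, with adjusted p = 0.795 for Ghrl and 0.933 for Sst. All 4 antimicrobial genes tested were higher in the small intestine, led by the lectin Itln1 at 41.6 and 82.4 FPKM against 0.00773 and 0.173 FPKM (5.78 ± 0.49, adjusted p = 0.00125). Of the 8 members of that list, 7 and 8 were under 1 FPKM in forestomach replicates 1 and 2. Those under 1 FPKM in both could pass the filter only through the small intestine, which fixed their direction in advance. Pla2g2a, Ang4, Mmp7 and Defa24 did not pass.

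Transcription factors of the intestine were higher at 12 of 20 members, 16 without forestomach replicate 1, 15 with 2 lower without replicate 2, and 7 without either small intestine library. Of the 20 members, 7 and 11 were under 1 FPKM in forestomach replicates 1 and 2. Those under 1 FPKM in both passed the filter only through the small intestine, which fixed their direction in advance. Cdx2 and Cdx1, homeobox factors that set intestinal identity, had close small intestine libraries and almost no forestomach signal. Cdx2 stood at 133 and 135 FPKM against 0.0273 FPKM and a listed 0 (7.06 ± 0.23, adjusted p = 8.48e-05). Cdx1 stood at 79.6 and 84.8 FPKM against 0.0302 FPKM and a listed 0 (6.36 ± 0.22, adjusted p = 8.63e-05). Isx, which restrains vitamin A uptake, stood at 75.0 and 78.4 FPKM against 0.152 and 0.220 FPKM (6.03 ± 0.34, adjusted p = 3.35e-04). Cdx1, Cdx2 and Isx thus had forestomach values under 1 FPKM in both libraries, while the nuclear receptor Hnf4a did not: 166 and 165 FPKM in the small intestine stood against 26.4 in forestomach replicate 1 and 1.98 in replicate 2 (4.20 ± 0.94, adjusted p = 0.0250). The Hnf4a call was lost when any library other than the forestomach pair was left out (adjusted p 0.0535 to 0.128). Its relative Hnf4g stood at 130.2 FPKM in both small intestine libraries against 1.73 and 0.470 FPKM (6.03 ± 0.48, adjusted p = 0.00101).

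The Gata factors of the endoderm were not called. Gata6 stood at 69.6 and 71.5 FPKM against 31.5 and 3.48 FPKM (2.57 ± 0.85, adjusted p = 0.0787). Gata4, which marks the glandular stomach and upper intestine but not the squamous forestomach, stood at 52.6 and 53.0 FPKM against 59.0 in forestomach replicate 1 and 2.70 in replicate 2 (1.85 ± 1.25, adjusted p = 0.340). Forestomach replicate 1 was thus level with the small intestine for Gata4 and replicate 2 was not. Pdx1, a factor of the antrum and duodenum, was at a lower level, at 4.96 and 5.30 FPKM against 0.00408 and 0.00831 FPKM (2.61 ± 0.48, adjusted p = 0.0137), a call lost without either small intestine library (adjusted p 0.0787 to 0.0929).

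**Figure D3:**
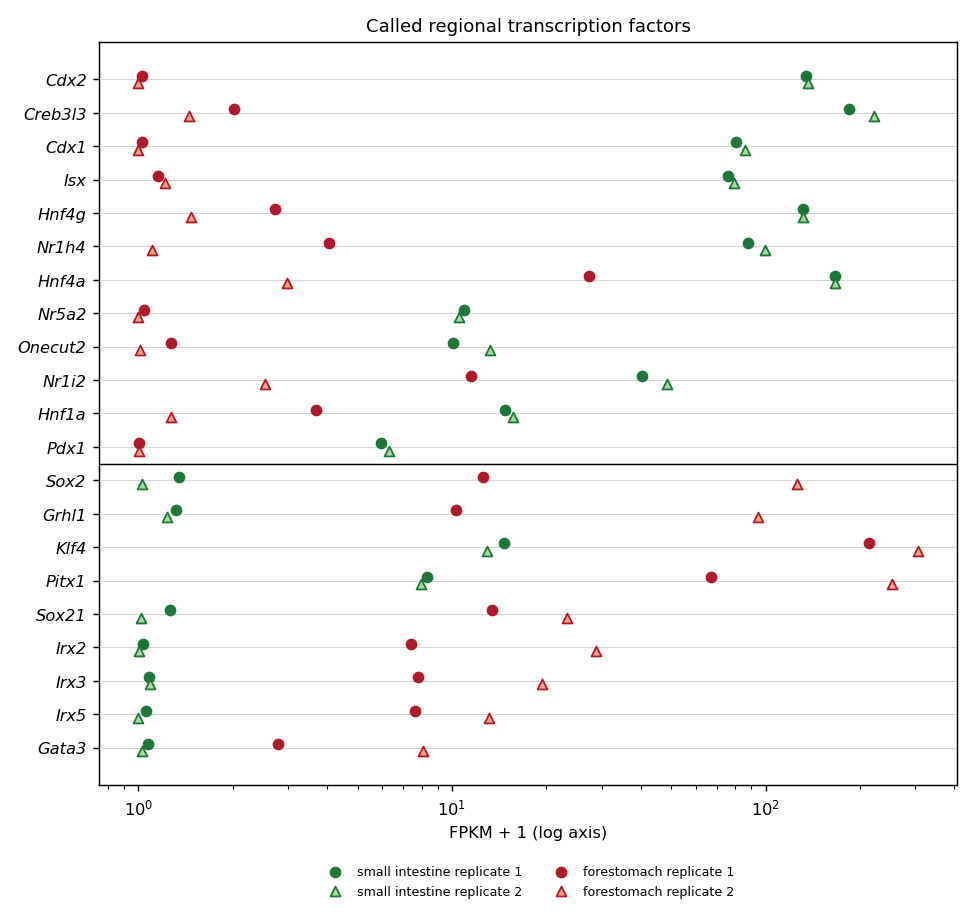
FPKM + 1 on a log axis in each of the 4 libraries for the 21 called transcription factors of the intestinal list (above the line) and of the squamous and foregut list (below it), colours and symbols by tissue and replicate. Hnf4a (26.4 and 1.98 FPKM) and Sox2 (11.6 and 125 FPKM) show the gap between forestomach replicates 1 and 2.

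Transcription factors of squamous epithelium and foregut were higher in the forestomach at 9 of 18 tested members, where 6.8% of all genes were. The count was 17 without forestomach replicate 1, 13 without replicate 2, with 2 others lower in the forestomach, and 5 and 4 without small intestine replicates 1 and 2 in turn. Of the 21 members, 15 and 15 were under 1 FPKM in small intestine replicates 1 and 2. Tested members under 1 FPKM in both passed the filter only through the forestomach, which fixed their direction and lack of overlap in advance. Sox2, the foregut factor, reached 11.6 FPKM in forestomach replicate 1 and 125 in replicate 2 against 0.345 and 0.0244 FPKM in the small intestine (-5.09 ± 0.99, adjusted p = 0.0160). That call was lost without either small intestine library (adjusted p 0.0786 to 0.102). Klf4, a factor of differentiating surface cells in both linings, stood at 212 and 306 FPKM against 13.7 and 11.9 FPKM (-4.22 ± 0.31, adjusted p = 7.95e-04). Pitx1 stood at 66.2 and 252 FPKM against 7.32 and 6.95 FPKM (-4.00 ± 0.58, adjusted p = 0.00651), a call lost without small intestine replicate 2 (adjusted p = 0.0539). The Iroquois factors Irx3 and Irx5 stood at 6.81 and 18.3 FPKM and at 6.60 and 12.1 FPKM in the forestomach, with no small intestine value above 0.0895 FPKM (-3.50 ± 0.41, adjusted p = 0.00343, for Irx3). Sox21 also kept its forestomach libraries close, at 12.4 and 22.2 FPKM against 0.261 and 0.0220 FPKM (-3.96 ± 0.30, adjusted p = 8.94e-04). Trp63, the master factor of basal squamous cells, missed the threshold: 2.85 and 53.0 FPKM stood against 0.00985 and 0.00398 FPKM (-3.84 ± 1.12, adjusted p = 0.0550). Both forestomach libraries lay above both small intestine libraries at Trp63, which the filter had fixed in advance. It was called after median-of-ratios scaling.

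Ranked under the same conditions, the 10 genes with the largest differences toward the forestomach were, in order, Psca, Krtdap, Krt13, Krt4, Cnfn, Lor, Sprr3, Krt5, Fam25c and Sprr1a. The calls of Sprr3 and Sprr1a were lost without either small intestine library, and that of Sprr3 also without either colon library (adjusted p 0.0563 to 0.127 for Sprr3 and 0.0502 to 0.0623 for Sprr1a). Krt13, a keratin of suprabasal mucosal cells, stood at 233 FPKM in forestomach replicate 1 and at 15454 in replicate 2, against 0.222 and 0.321 FPKM in the small intestine (-10.55 ± 2.09, adjusted p = 0.0168). Its partner keratin Krt4 stood at 126 and 12204 FPKM against 0.163 and 0.211 FPKM (-10.03 ± 2.27, adjusted p = 0.0255). The pair of forestomach values was far apart at both keratins. Both calls were lost without either small intestine library, and that of Krt4 also without either colon library (adjusted p 0.0551 to 0.127 for Krt4 and 0.0880 to 0.0973 for Krt13). Krtdap, a secreted keratinocyte protein, stood at 528 and 5429 FPKM against 0.0973 and 0.0492 FPKM (-10.63 ± 1.09, adjusted p = 0.00226). Lor, which encodes loricrin of the cornified envelope, stood at 320.1 and 3029 FPKM against 0.130 and 0.282 FPKM (-9.68 ± 0.95, adjusted p = 0.00193). Krtdap and Lor kept their calls with each of the 8 libraries left out in turn. Psca, a surface antigen expressed in squamous and gastric epithelium and a member of the gastric glandular list, was higher in forestomach replicate 1 than in replicate 2, with 6704 and 1232 FPKM against 0.999 and 0.0583 FPKM (-10.95 ± 0.85, adjusted p = 9.39e-04).

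Cornified and suprabasal genes were higher in the forestomach at 17 of 24 tested members (median difference -7.28), 24 without forestomach replicate 1 and 23 without replicate 2, and all 24 had both forestomach libraries above both small intestine libraries (22.2% of all genes did). Called members numbered 8 and 7 without small intestine replicates 1 and 2 in turn. Their summed level was 2418 FPKM in forestomach replicate 1 and 63523 in replicate 2, against 10.8 and 10.7 FPKM in the small intestine. Of the 28 members in the table, 24 and 25 were under 1 FPKM in small intestine replicates 1 and 2. Most tested members thus passed the filter only through the forestomach. That fixed their direction and lack of overlap in advance, so 22.2% of all genes is not a like comparison. Cnfn, a component of the cornified envelope, stood at 171 and 4882 FPKM against 0.0115 and 0.0697 FPKM (-9.78 ± 1.49, adjusted p = 0.00753), a call lost without either small intestine library (adjusted p 0.0502 to 0.0570). Members that were not called had a low forestomach replicate 1. Tgm1, the transglutaminase that cross-links the envelope, stood at 6.86 and 283 FPKM against 1.11 and 0.867 FPKM (-4.57 ± 1.54, adjusted p = 0.0824). Alox12b, a lipoxygenase of the epidermal lipid barrier, stood at 3.95 and 366 FPKM against 0.0306 and 0.00687 FPKM (-5.39 ± 1.80, adjusted p = 0.0804).

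Basal squamous genes were higher in the forestomach at 7 of 15 tested members, 14 without forestomach replicate 1, 10 without replicate 2, and 4 and 3 without small intestine replicates 1 and 2 in turn. Of the 16 members, 9 and 12 were under 1 FPKM in small intestine replicates 1 and 2. Tested members under 1 FPKM in both passed the filter only through the forestomach, which fixed their direction in advance. Krt14, a keratin of basal cells, had nearly equal forestomach libraries, 193 and 212 FPKM, against 0.174 and 0.0665 FPKM (-7.51 ± 0.31, adjusted p = 1.19e-04). Its partner Krt5 stood at 167 and 2574 FPKM against 0.0679 and 0.0534 FPKM (-9.27 ± 1.52, adjusted p = 0.00931), a call lost without either small intestine library (adjusted p 0.0592 to 0.0681). Lamb3, a chain of the laminin under hemidesmosomes, stood at 15.3 and 14.5 FPKM against 0.628 and 0.354 FPKM (-3.42 ± 0.27, adjusted p = 0.00101). Krt15, another basal keratin, was among the genes most different between the forestomach libraries, with 11.1 and 2376 FPKM against 0.874 and 0.539 FPKM (-6.64 ± 2.25, adjusted p = 0.0837). Basal genes thus included members with equal and members with widely different forestomach libraries.

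Desmosome genes were higher in the forestomach at 2 of 12 tested members, 10 with 1 lower without forestomach replicate 1, 4 without replicate 2 and none without any of the other 6 libraries. With all libraries 6.8% of all genes were called higher in the forestomach, so 2 of 12 is not read as a result about the list. Of the 13 members, 6 and 6 were under 1 FPKM in small intestine replicates 1 and 2. Tested members under 1 FPKM in both passed the filter only through the forestomach, which fixed their direction in advance. The called members were Pkp1, a plakophilin, and Dsg1b, a desmoglein. They stood at 9.83 and 323 FPKM and at 3.81 and 92.3 FPKM in the forestomach, with small intestine values of 0.00997 FPKM or less. Both calls were lost when any library other than the forestomach pair was left out (adjusted p 0.0717 to 0.162 for Pkp1 and 0.0951 to 0.196 for Dsg1b). Dsp, the desmoplakin that both linings use, stood at 41.6 and 399.8 FPKM in the forestomach against 27.0 and 33.6 FPKM in the small intestine and was not called (-2.07 ± 0.95, adjusted p = 0.171). Protease inhibitors of squamous epithelium were higher in the forestomach at 7 of 10 tested members, at all 10 without either forestomach library and at 3 without either small intestine library. All 16 inhibitors of that list were under 1 FPKM in both small intestine libraries. The 10 tested thus passed the filter only through the forestomach, which fixed their direction in advance. Serpinb3b, Serpinb3c, Serpinb3d, Serpinb13, Stfa1 and Stfa3 did not pass. Spink5, an inhibitor of the proteases that shed cornified cells, stood at 198 and 114 FPKM against 0.00518 FPKM and a listed 0 (-7.24 ± 0.33, adjusted p = 1.54e-04). Slpi, the secretory leukocyte protease inhibitor, stood at 89.5 and 1242 FPKM against 0.112 and 0.0566 FPKM (-8.27 ± 1.10, adjusted p = 0.00493).

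General epithelial genes were used to check for epithelium in all 4 libraries. Of 17 tested, 3 were called higher in the small intestine and 1 in the forestomach. Over all genes 12.7% and 6.8% were, so these counts are not read as a result about the list. The counts were 5 and 6 without forestomach replicate 1, 6 and 3 without replicate 2, and 1 and none in the small intestine without its replicates 1 and 2. Cdh1, E-cadherin, stood at 168 and 173 FPKM in the small intestine against 166 and 199 FPKM in the forestomach (-0.09 ± 0.19, adjusted p = 0.767). Krt8, a keratin of simple epithelium, stood at 619 and 665 FPKM against 1245 and 468 FPKM (-0.25 ± 0.47, adjusted p = 0.738). Epcam, a surface protein of simple epithelium, was higher in the small intestine, at 559.7 and 564 FPKM against 83.2 and 146 FPKM (2.34 ± 0.30, adjusted p = 0.00460). That call was lost without small intestine replicate 2 (adjusted p = 0.0503). The claudin Cldn7 stood at 312 and 326 FPKM against 2.21 and 33.9 FPKM (4.92 ± 1.00, adjusted p = 0.0183), lost without either small intestine library (adjusted p 0.0919 to 0.106). Its relative Cldn4 was low in forestomach replicate 1 and high in replicate 2: 29.0 and 22.0 FPKM in the small intestine lay between 2.11 and 181 FPKM (0.14 ± 1.73, adjusted p = 0.961). All 4 libraries thus held abundant Cdh1, while forestomach replicate 1 also held gastric glandular genes, which a squamous lining is not known for.

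**Figure D4:**
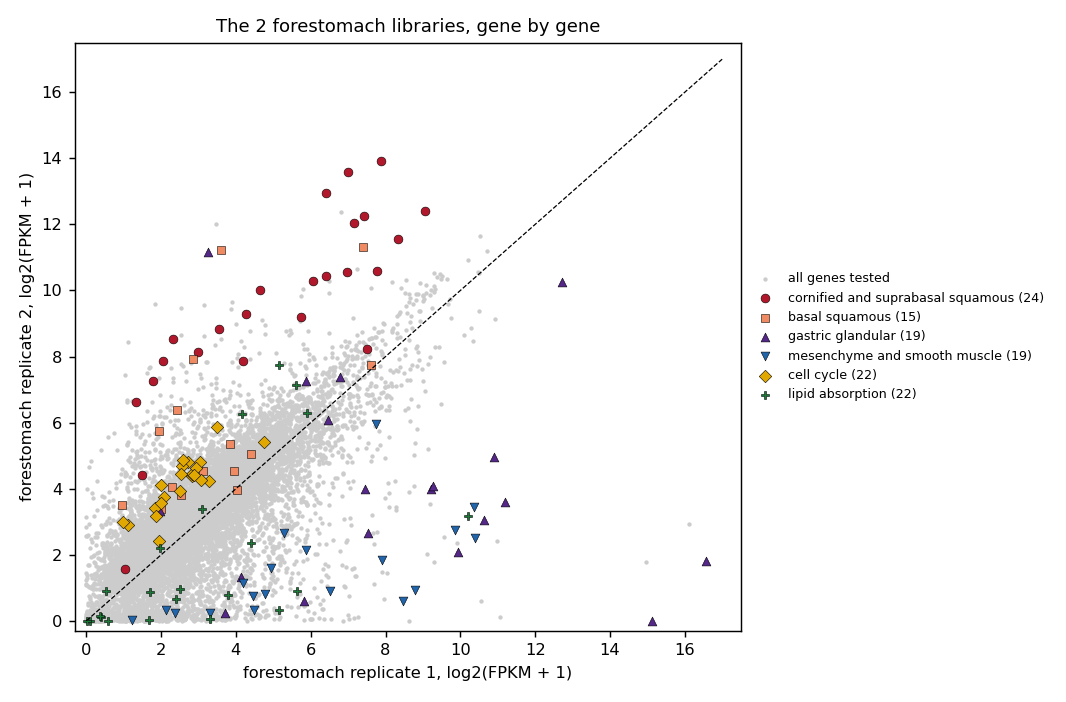
log2(FPKM + 1) of forestomach replicate 2 against replicate 1 for the 11684 genes tested (grey) and for 6 gene lists (coloured symbols), with the line of equality dashed. Cornified genes lie on the side of replicate 2, with Krt13 at 15454 against 233 FPKM, and most gastric glandular and all smooth muscle and mesenchyme genes lie on the side of replicate 1, with Pgc at 97969.9 against 2.55 FPKM.

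The 26 gastric glandular genes summed to 186189.7 FPKM in forestomach replicate 1, 4046 in replicate 2, and 326 and 91.6 FPKM in the small intestine. Pgc stood at 97969.9 FPKM in forestomach replicate 1 and at 2.55 in replicate 2, against 5.32 and 0.565 FPKM in the small intestine. Atp4b, a subunit of the proton pump of acid-secreting cells, stood at 2326 and 11.2 FPKM against 2.18 and 0.0378 FPKM, and Gkn2, a gastrokine of surface mucous cells, at 35988 FPKM and a listed 0 against 1.54 and 0.360 FPKM. Forestomach replicate 2 lay between the small intestine libraries at Pgc, below both at Gkn2 and above both at Atp4b, and adjusted p was 0.259 for Pgc, 0.0870 for Atp4b and 0.323 for Gkn2. Cym, the milk-clotting protease, showed the reverse, at 8.49 FPKM in forestomach replicate 1 and 2310.1 in replicate 2 (adjusted p = 0.978). Of 19 tested gastric genes, 6 were called higher in the forestomach, 11 without replicate 1, with 1 lower there, and 16 without replicate 2, with 3 and 2 without small intestine replicates 1 and 2 in turn. With all libraries 6.8% of all genes tested were called higher in the forestomach. Among the 6 gastric genes were Psca and Foxq1, a forkhead factor of the stomach, which stood at 86.3 and 67.4 FPKM against 5.82 and 6.68 FPKM (-3.42 ± 0.23, adjusted p = 5.83e-04).

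Genes of tissues beneath the epithelium were measured beside these results. The 22 mesenchyme and smooth muscle genes summed to 5177 FPKM in forestomach replicate 1 and 101 in replicate 2, and to 457 and 96.3 FPKM in small intestine replicates 1 and 2. None of 19 tested members was called by limma with all libraries (1 at an unadjusted p under 0.05). Without forestomach replicate 2, 10 were called higher in the forestomach, and Des was called higher in the small intestine without forestomach replicate 1. Des, the muscle protein desmin, stood at 353 and 0.511 FPKM in the forestomach against 11.8 and 3.52 FPKM in the small intestine (-1.60 ± 2.32, adjusted p = 0.661). The 15 immune genes summed to 439 FPKM in forestomach replicate 1, 18.4 in replicate 2, and 60.9 and 28.8 FPKM in the small intestine. The 10 erythroid genes reached 8.36 FPKM in sum at most. In bulk RNA, fewer cells of a type and less RNA per cell cannot be told apart, and the part of these cells in the differences above was not tested.

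Pancreatic and hepatic genes summed to 3882 and 735 FPKM in small intestine replicates 1 and 2, to 71243 FPKM in forestomach replicate 1 and to 10.6 in replicate 2. Of 13 tested members, 6 were called higher in the small intestine, 11 without forestomach replicate 1, and 6 without replicate 2, where Clps and Ttr were lower in the small intestine. The count was 2 and 5 without small intestine replicates 1 and 2 in turn. With all libraries 12.7% of all genes tested were called higher in the small intestine. Ctrb1, a chymotrypsinogen of acinar cells, stood at 1807 and 298 FPKM against 0.696 and 0.121 FPKM (9.06 ± 1.06, adjusted p = 0.00333). Afp, the fetal serum protein of liver and yolk sac, stood at 175 and 86.6 FPKM against 0.398 and 0.0639 FPKM (6.67 ± 0.58, adjusted p = 0.00135). The acinar genes Ctrb1 and Cpa1 were thus several times higher in small intestine replicate 1 than in replicate 2, 180.3 against 23.8 FPKM for Cpa1, whose call was lost without replicate 1 (adjusted p = 0.0775). Clps, the pancreatic colipase, made up nearly all of the sum in forestomach replicate 1, at 71034 FPKM against 6.55 in replicate 2 and 442 and 97.2 FPKM in the small intestine (adjusted p = 0.774).

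**Figure D5:**
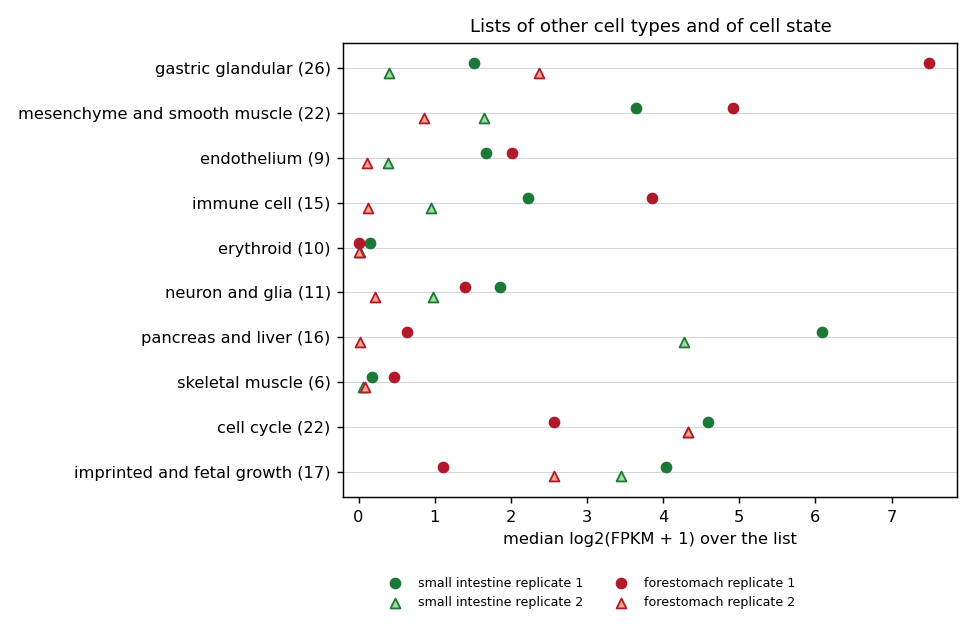
Median log2(FPKM + 1) over all members of lists of other cell types and of cell state (number in brackets) in each of the 4 libraries, small intestine green and forestomach red, circles for replicate 1 and triangles for replicate 2. Forestomach replicate 1 stands apart at gastric glandular genes (7.49 against 2.37 in replicate 2) and at cell cycle genes (2.57 against 4.33).

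Cell cycle genes depended on which forestomach library was used. None of 22 tested members was called by limma with all libraries (median difference 0.99, 6 at an unadjusted p under 0.05) and none without forestomach replicate 1 (0.18, 3 at an unadjusted p under 0.05), and 21 were called higher in the small intestine without replicate 2 (1.87), or 20 with median-of-ratios scaling too. Top2a, a topoisomerase of dividing cells, stood at 29.9 and 25.7 FPKM in the small intestine, 5.53 in forestomach replicate 1 and 27.0 in replicate 2 (1.09 ± 0.63, adjusted p = 0.270). Forestomach replicate 2 thus matched the small intestine in level and replicate 1 was lower. Of 15 tested imprinted and fetal growth genes, 3 were called higher in the small intestine, 5 without forestomach replicate 1, with Plagl1 lower, 9 without replicate 2 and 1 without either small intestine library. With all libraries 12.7% of all genes were called higher in the small intestine, so 3 of 15 is not read as a result about the list. H19 stood at 9134 and 9609 FPKM in the small intestine, 10.1 in forestomach replicate 1 and 4137 in replicate 2 (5.45 ± 2.48, adjusted p = 0.170), and the imprinted growth factor Igf2 at 864 and 844 FPKM against 1.15 and 348 FPKM (4.96 ± 2.12, adjusted p = 0.147). Both genes were far lower in forestomach replicate 1 than in the other 3 libraries. Cdkn1c, an imprinted inhibitor of the cell cycle, was called, at 461 and 525 FPKM against 8.99 and 71.8 FPKM (4.19 ± 0.85, adjusted p = 0.0179), and lost without either small intestine library (adjusted p 0.0877 to 0.108).

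Stress genes that tissue handling can induce were higher in the forestomach at 7 of 12 tested members, 8 without either forestomach library and 4 without either small intestine library. With all libraries 6.8% of all genes tested were called higher in the forestomach. Hspa1a and Hspa1b, the inducible HSP70 genes, stood at 12.5 and 14.0 FPKM and at 23.5 and 27.2 FPKM in the forestomach. In the small intestine they stood at 0.326 and 0.377 FPKM (-3.39 ± 0.28, adjusted p = 0.00108) and at 0.896 and 0.745 FPKM (-3.85 ± 0.28, adjusted p = 7.52e-04). The forestomach libraries were close to each other at both genes, which are near-identical copies whose reads the counting may have split. Hspb1, a small heat shock protein also abundant in squamous cells, stood at 195 and 1080.2 FPKM against 3.27 and 1.23 FPKM (-7.22 ± 0.84, adjusted p = 0.00331). The immediate early gene Fos stood at 36.3 and 15.9 FPKM against 2.24 and 2.06 FPKM (SE 0.53 on the log2 scale, adjusted p = 0.0120), a call lost without either small intestine library (adjusted p 0.0717 to 0.0853), while Jun was not called, at 37.9 and 30.8 FPKM in the forestomach against 24.5 and 26.2 FPKM in the small intestine (-0.42 ± 0.22, adjusted p = 0.236). The part of isolation in these differences cannot be told apart from that of tissue.

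Xenobiotic metabolism genes had calls on both sides. Of 15 tested xenobiotic genes, 6 were higher in the small intestine and 3 in the forestomach, where 12.7% and 6.8% of all genes were. Their median difference was 2.14. The counts were 11 and 3 without forestomach replicate 1 (median 3.36), 6 and 4 without replicate 2 (1.02), and 6 and 2 without either small intestine library. Abcc2, an export pump for conjugates, stood at 24.1 and 22.0 FPKM against 0.00723 and 0.00630 FPKM (4.58 ± 0.29, adjusted p = 4.62e-04). Gsta4, a glutathione transferase that clears lipid aldehydes, went the other way, at 30.1 and 15.5 FPKM against 1419 and 1515 FPKM in the forestomach (-6.01 ± 0.37, adjusted p = 4.43e-04). Both forestomach libraries were high at Gsta4 and close to each other. Of 16 tested progenitor and Wnt target genes, 2 were higher and 2 lower in the small intestine, where 12.7% and 6.8% of all genes were, so that the share called higher was not above that of all genes. None was called without either small intestine library. Without a hindstomach library none was higher and 1 lower, and without forestomach replicates 1 and 2 in turn 2 and 3 were higher and 5 and 5 lower. Olfm4, a marker of intestinal crypt progenitors, stood at 87.9 and 127 FPKM against 2.88 and 12.6 FPKM (3.88 ± 0.99, adjusted p = 0.0370), a call lost without forestomach replicate 1 or any small intestine or hindstomach library (adjusted p 0.0760 to 0.182). Ephb3, an ephrin receptor, stood at 1.42 and 1.05 FPKM against 7.86 and 21.9 FPKM (-2.68 ± 0.50, adjusted p = 0.0144), lost without either small intestine library (adjusted p of 0.0756 or above).

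Genes whose direction turned with the forestomach library numbered 120 (1.03% of those tested). At 83 (0.71%) the small intestine was called above forestomach replicate 2 and below replicate 1, and at 37 (0.317%) the reverse. None of the brush border, microvillus, transporter, lipid, cornified, basal, desmosome or protease inhibitor genes was among them. At a share of 1.03% few would be, so this is not read as a result about those lists. Members under 1 FPKM in both libraries of a tissue also could not turn, because they passed the filter only through the other tissue. The list members of the first kind were Agr2, Chga, Ghrl, Sst, Foxa3, Prom1, Krt18, Capn9, Des, Cd74, Clps and Ttr, and those of the second were Ovol1, Krt7 and Cldn4. Krt18, the partner of Krt8, stood at 222 and 207 FPKM in the small intestine, 458 in forestomach replicate 1 and 54.7 in replicate 2. Chga, a granule protein of endocrine cells, stood at 13.2 and 20.2 FPKM against 147 and 1.57 FPKM. Ovol1, a zinc finger factor of differentiating epithelium, stood at 15.6 and 17.2 FPKM, with 6.12 in forestomach replicate 1 and 51.2 in replicate 2. At all 3 the small intestine lay between the forestomach libraries. Among the gene models ranked, the widest gap between the forestomach libraries toward replicate 2 was at H19.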

How the data were processed

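RNA was measured in 8 libraries, 2 from each of 4 tissues, and 4 of them carry this comparison. The authors deposited FPKM values (fragment numbers scaled to transcript length and library total) in 1 table of 23393 gene symbols, 0 of them duplicated. Another 4 columns of per-sample values were not used. Per the submitters' processing notes, STAR 2.4.2a and mm10 (GRCm38) were used. Which program gave the FPKM values, with which annotation and strand setting, is not given in the sources used here. Genes that overlap, lie antisense or are near copies may therefore share reads. Because FPKM is relative to the library's total, a few very abundant genes in a library lower its other values. Read numbers are unknown, and no interval or detection floor was derived.

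Values were analysed as log2(FPKM + 1) for genes that reached 1 FPKM in 2 or more of the 4 libraries, with a linear model of 4 tissue means over the 8 libraries in limma 3.58.1 and R 4.3.3 (moderated with a trend on the mean level, with 4 residual degrees of freedom). Calls needed a two-sided Benjamini-Hochberg adjusted p under 0.05 over all genes tested and at least 2-fold. Genes were named by rank of the difference (the 10 largest of each side with all libraries, and without each forestomach library). Ranked genes had to be called, to average at least 10 FPKM in the higher tissue and to show no overlap between the tissues. Up to 5 called members of each gene list were named, and 3 uncalled ones with a mean of at least 10 FPKM in either tissue. Also named were called members against their list, called transcription factors, and the 8 widest gaps between the forestomach libraries in each direction. Predicted, RIKEN, ribosomal pseudogene and mitochondrial gene models were left out of the ranks and the gaps. Only some of these are described. Named outside this rule, after their values were seen, were Slc27a4, Slc2a5, Slc46a1, Plagl1, Cdh1, Krt8, Krt18, Krt7, Cldn4, Dsp, Top2a, Foxa3, Capn9, Cd74, Ttr and Ovol1. In the list of squamous and foregut transcription factors, 1 gene is not reported here and is left out of the list's counts. The comparison, its members and the gene lists were chosen with earlier results of these data known. Scaling combined with leaving out a forestomach library was added after seeing the data. The other alternatives were pseudocounts of 0.1 and 5, filters, scalings, variance models, a fit of the 4 libraries alone, a block by replicate number, and each library omitted in turn.

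The fit was tested on simulated data of 11684 genes with 50 changed at each fold. Drawn with the forestomach spread smoothed over the mean level, it recovered 30% of 2-fold, 94% of 4-fold and 100% of 8-fold changes, with 45 false calls among 11484 unchanged genes. Changed genes were drawn only from those with a higher mean level, and the noise of each gene was independent. The real forestomach libraries differed at whole gene lists together, which the simulation left out. Its recovery and false calls therefore do not carry over to low genes or to those lists. Of the symbols, 23257 matched GENCODE M21 on GRCm38. Promoter windows and their motif matches came from the RefSeq table of GRCm38.p6.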

Additional observations from a re-analysis of the deposited data

How the results depend on the processing

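Against 2280 genes called, 1486 higher in the small intestine and 794 in the forestomach, leaving out 1 library gave 616 to 3813 calls, 463 to 2366 and 153 to 1497 by side. The fewest came without small intestine replicate 2 and the most without a forestomach library. A pseudocount of 5 gave 1384 calls (383 in the forestomach), and rescaling to the same sum gave 529 in the forestomach. A fit of the 4 libraries alone gave 724 (554 and 170). That fit had fewer degrees of freedom and also left the hindstomach and colon pairs out of the shared spread. Median-of-ratios scaling without forestomach replicate 1 gave 3650 calls (1641 in the forestomach) and without replicate 2 gave 3588 (1918). The cause of the shifts was not tested. Every other alternative stayed within 1.5 times of these 3 counts, apart from 497 in the forestomach without either hindstomach library. Of 70 called genes named in the text, 45 were called under all 22 alternatives, 47 with each of the 8 libraries left out, and none changed sign. A block by replicate number gave 2011 calls (1345 and 666) and 67 of the 70 genes. Replicate differences of the 2 tissues correlated at 0.135 and other tissue pairs at -0.587 to 0.266, so the numbers were not taken as pairs.

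Genes that turned with the forestomach library are given as the difference without replicate 1 and without replicate 2: Agr2 3.31 and -1.34, Capn9 1.32 and -3.90, Cd74 2.27 and -4.21, Chga 2.75 and -3.09, Cldn4 -2.79 and 3.08, Clps 4.79 and -8.41, Des 2.33 and -5.54, Foxa3 1.69 and -2.18, Ghrl 2.66 and -4.41, Krt18 1.95 and -1.09, Krt7 -2.58 and 1.45, Ovol1 -1.59 and 1.29, Prom1 1.12 and -2.63, Sst 3.35 and -3.96, and Ttr 4.00 and -1.52. With median-of-ratios scaling too, those that turned without replicate 1 were Capn9 at 1.36, Cd74 at 2.38, Chga at 2.77, Cldn4 at -2.85, Clps at 4.76, Des at 2.39, Foxa3 at 1.70, Ghrl at 2.65, Prom1 at 1.13 and Sst at 3.41. Those that turned without replicate 2 were Agr2 at -1.67, Krt18 at -1.42, Krt7 at 1.17, Ovol1 at 1.01 and Ttr at -1.85. Depth is unknown, and exact zeros are given only as listed at 0.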
